A study of Mus musculus with 6 samples.

Results

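The genes of cyclin B, its kinase Cdk1 and the enzymes that switch this kinase on and off were examined in oocytes of naturally aged mice. They were chosen by name and role and comprised 10 genes, namely *Ccnb1*, *Ccnb2*, *Ccnb3*, *Cdk1*, *Cdc25a*, *Cdc25b*, *Cdc25c*, *Wee1*, *Wee2* and *Pkmyt1*. All 10 were found among the 25631 genes of the deposited table, and 10 of 10 passed the filter on low values that 10340 genes passed. RNA was sequenced from ICR mouse oocytes in 6 libraries. In the control group (n = 3), 14-month-old females had drunk water without drug and their oocytes are called aged and untreated in the labels. In the aminophylline group (n = 3), females of the same age had drunk 4.0 mM aminophylline, a nonspecific phosphodiesterase inhibitor, for 1 week and water only for a further 3 weeks. The mice of both groups were injected with equine chorionic gonadotropin, and the oocytes were punctured out of large antral follicles. How many oocytes and mice went into a library is not given in the sources used here, so that p-values measure only the spread between these libraries, which may be technical.

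Cyclin B binds and activates Cdk1, and the complex, known as maturation promoting factor, drives the prophase-arrested oocyte back into meiosis. While the oocyte is arrested, high cAMP keeps protein kinase A active, Wee2 and Myt1 place inhibitory phosphates on Cdk1, and Cdc25 phosphatases that could remove them are held inactive. Phosphodiesterases break down cAMP, and a fall in cAMP reverses this balance. The mRNAs of these proteins are made in growing oocytes and stored. Much of the control of these proteins lies in translation and phosphorylation, which mRNA levels do not measure.

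The libraries held 14112341 to 33641283 reads, with control library 2 the shallowest, and the log2 levels of the tested genes correlated between any pair of libraries with r from 0.97 to 0.99. Levels are given as FPKM, counted fragments scaled to transcript length and to the library's total, which allows genes to be set against each other. The oocyte identity of the libraries was checked with 14 oocyte markers, all of which were detected, with summed levels of 19020 to 26150 FPKM, and 2 of which (*Zar1* and *Figla*) were higher after aminophylline at an unadjusted limma p under 0.05, beside 4.41% of all tested genes. Their counterparts of granulosa and cumulus cells summed to 16.1 to 24.2 FPKM over 12 genes, those of theca and stroma to 0.812 to 1.90 FPKM over 8 genes, and those of erythrocytes to at most 0.585 FPKM over 4 genes. Macrophage markers (11 genes) summed to 239.7 FPKM in control library 1 and to 81.06 to 101.8 FPKM in the other libraries. Of the markers, *C1qb* had 72.3 to 99.8 FPKM in every library and held nearly all of the sum outside control library 1. *Lyz2* reached 66.4 FPKM in control library 1 and at most 0.573 FPKM in any other library. *Fcer1g* (57.6 and at most 0.368), *Tyrobp* (20.3 and at most 0.308) and *C1qc* (14.8 and 0) showed the same contrast. The 8 genes of somatic cell proliferation, which oocytes also express, summed to 292.0 to 358.9 FPKM. In bulk samples such as these, fewer cells of a type and less RNA per cell cannot be told apart.

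The promoters of the main cyclins and of the kinase are shown because these 3 genes share a spacing of motifs that the choice of genes did not use. RefSeq windows (GRCm38.p6) from 250 bases before to 50 bases after the gene start were at hand for 7 of the 10 genes, all but *Cdc25c*, *Wee1* and *Pkmyt1*. They were searched on both strands for CCAAT, the letters bound by the factor NF-Y, and for TTTGAA, the letters of the cell cycle element CHR. The related letters TTTAAA were searched too, as was TTCGAA. Where ATTGG stands in capitals it is CCAAT read on the other strand, and the other capitals mark CCAAT itself and the element TTTGAA. No marked motif shares bases with another. The strand is the minus strand for all 3 genes, and sequences run in the direction of transcription.
Ccnb1, chr13:100786437-100786736: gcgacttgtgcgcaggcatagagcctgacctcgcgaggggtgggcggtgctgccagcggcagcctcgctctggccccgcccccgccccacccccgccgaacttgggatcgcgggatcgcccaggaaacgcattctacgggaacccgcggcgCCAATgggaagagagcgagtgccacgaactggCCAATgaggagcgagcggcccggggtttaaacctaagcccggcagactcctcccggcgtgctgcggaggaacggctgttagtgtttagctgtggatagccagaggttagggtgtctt
Ccnb2, chr9:70421505-70421804: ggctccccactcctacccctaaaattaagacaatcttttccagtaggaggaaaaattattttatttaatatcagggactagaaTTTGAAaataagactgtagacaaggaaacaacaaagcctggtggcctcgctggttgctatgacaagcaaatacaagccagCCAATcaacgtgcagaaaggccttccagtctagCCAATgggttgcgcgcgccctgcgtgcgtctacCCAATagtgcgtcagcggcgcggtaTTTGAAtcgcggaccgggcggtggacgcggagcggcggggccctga
Cdk1, chr10:69352863-69353162: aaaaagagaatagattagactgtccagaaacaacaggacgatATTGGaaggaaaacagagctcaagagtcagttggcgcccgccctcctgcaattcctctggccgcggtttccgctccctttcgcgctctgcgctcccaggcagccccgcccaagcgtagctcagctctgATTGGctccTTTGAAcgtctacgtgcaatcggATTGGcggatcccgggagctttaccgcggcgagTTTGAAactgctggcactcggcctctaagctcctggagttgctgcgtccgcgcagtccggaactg
Positions count the first transcribed base as 1, with no position 0, and name the motif's leftmost base. *Ccnb1* held CCAAT at -99 and -67, 32 bases apart. *Ccnb2* held it at -87, -54 and -21, with 33 bases between each and the next. *Cdk1* held it at -208, -80 and -48, the last pair again 32 bases apart. A pair of CCAAT motifs spaced by 31 to 34 bases, a range set after these matches were seen, was present in 3 of the 7 windows and in 1.20% of all 32851 promoter windows. At least 1 CCAAT was present in 6 of the 7 windows (37.4% of all windows), with *Ccnb3* the exception. TTTGAA was present in 2 of the 7 (17.9% of all), at -167 and 5 in *Ccnb2* and at -71 and -15 in *Cdk1*. TTTAAA (13.2% of all windows) stood in *Ccnb1* at -42 and in *Ccnb3* at -185 and -143, and TTCGAA (1.56% of all windows) in *Cdc25b* at 8. A match of letters is a description and not a bound site.

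The genes fell into an abundant set and a set that was scarce beside it. *Ccnb1* had the highest mean over the 6 libraries, 835.1 FPKM, and stood at percentile 99.1 of the tested genes. *Ccnb2* followed with 285.9 FPKM (percentile 96.3), *Wee2* with 136.0 FPKM (percentile 92.3) and *Cdk1* with 54.1 FPKM (percentile 85.0). Each of these 4 genes was above the next in all 6 libraries, with no overlap of their ranges. The other 6 genes lay far lower, with means of 7.69 FPKM for *Cdc25b*, 7.60 for *Cdc25a*, 5.20 for *Cdc25c*, 3.83 for *Ccnb3*, 2.77 for *Wee1* and 2.45 for *Pkmyt1*. In the same order they stood at percentiles 53.2, 53.0, 44.2, 36.45, 27.8 and 24.85 of the tested genes. They are called scarce only beside the other 4, as the Cdc25 genes were near the middle of the tested genes. The step from *Cdk1* down to *Cdc25b* was 7.03-fold, whereas the ranges of neighbours from *Cdc25b* downwards overlapped, so that no step between neighbours among the scarce genes stood out from their spread. The plot of levels by library shows this gap.

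**Figure D1:**
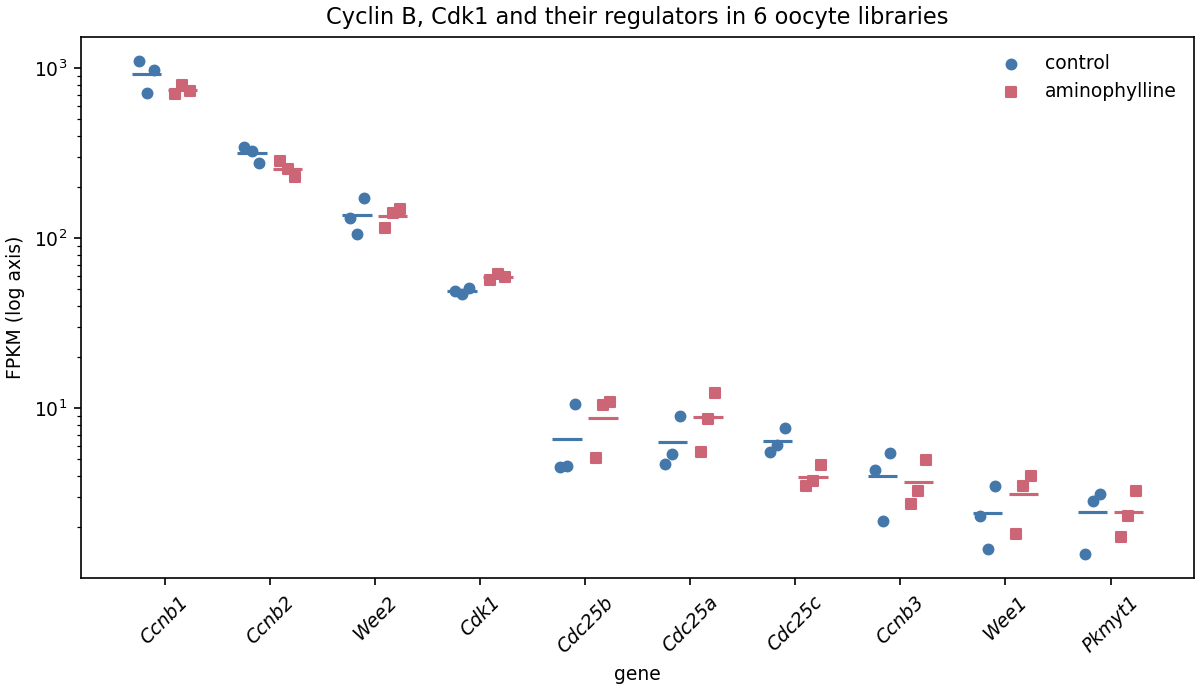
FPKM of the 10 genes (log axis, genes in order of mean level) in the 3 control libraries (circles) and the 3 aminophylline libraries (squares), with lines at the group means. *Ccnb1*, *Ccnb2*, *Wee2* and *Cdk1* lie at 46.9 FPKM or above in every library and the other 6 genes at 12.4 FPKM or below.

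Between the groups, *Cdc25c* was lower and *Cdk1* higher in every aminophylline library than in every control, which held for no other gene of the 10. By limma the difference of *Cdk1* did not pass, and those of *Cdc25a* and *Cdc25b* were larger but overlapped between the groups. *Cdc25c* was the only one of the 10 with an unadjusted p under 0.05 by limma (1 lower, against a background of 2.84% of the tested genes; 0 higher, against 4.41%; 1 in either direction, against 7.25%). No gene of the 10 passed at an adjusted p (Benjamini-Hochberg), and no gene of the 10340 did (0%), with a smallest adjusted p of 0.455, while 750 genes were under 0.05 unadjusted. Limma's voom on recovered reads also gave 0 at an adjusted p and 865 unadjusted. With the replicate number as a block, 47 of all genes passed at an adjusted p and 1467 unadjusted, again with none of the 10 at an adjusted p. The groups did not overlap for *Cdk1* (1 higher, against 7.51% of tested genes) and for *Cdc25c* (1 lower, against 4.96%). With 1 and 1 of 10 genes, these counts are near the background. On the log2(FPKM + 1) scale 6 genes had a positive and 4 a negative difference, with a median of 0.0047 beside 0.10 over all tested genes.

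**Figure D2:**
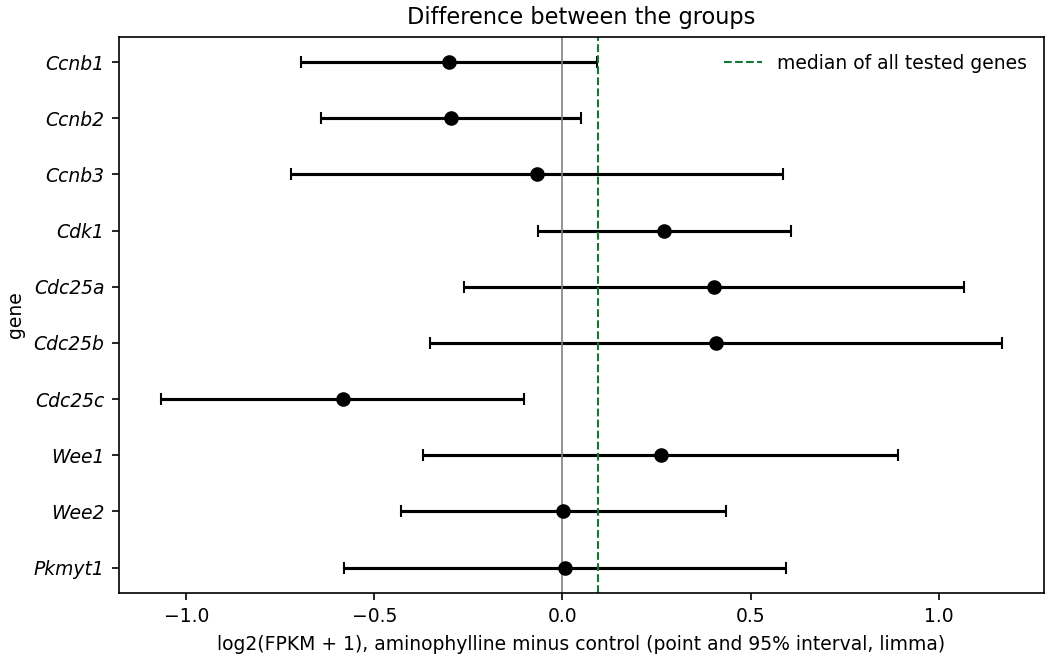
Difference in log2(FPKM + 1) between aminophylline and control for each gene (point, with its 95% interval from limma) and the median difference of all tested genes (dashed line, 0.10). Only the interval of *Cdc25c*, -1.07 to -0.10, lies wholly on one side of 0.

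The cyclins were examined first. *Ccnb1* (NCBI gene 268697, chromosome 13, 100778739 to 100786486, minus strand, GRCm38.p6) encodes the main cyclin B of the oocyte. Its levels in control libraries 1, 2 and 3 were 1097, 717.2 and 969.5 FPKM, and those in aminophylline libraries 1, 2 and 3 were 700.8, 791.2 and 734.3 FPKM. Control libraries 1 and 3 were above every aminophylline library, but control library 2 lay between aminophylline libraries 1 and 3, so that the groups overlapped. The means were 928.1 ± 193.5 in controls and 742.1 ± 45.7 after aminophylline (SD, n = 3 each). The log2 difference of -0.30 (SE 0.18, 95% interval -0.70 to 0.09) did not pass in limma (adjusted p = 0.725). Counts of 23442 to 85507 reads leave a counting error of at most 0.653% of the value, far under the control SD. The value depended on single control libraries, at -0.17 without control library 1, which held the most macrophage marker RNA, and -0.48 without control library 2, when it was under 0.05 unadjusted, and the part of that RNA in it was not tested. With library weights the log2 difference of -0.34 was also under 0.05 unadjusted. A processed pseudogene listed in the table, *Ccnb1-ps*, had 3.24 to 8.04 FPKM, and how reads shared with it were assigned is not given in the sources used here.

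*Ccnb2* (NCBI gene 12442, chromosome 9, 70407689 to 70421554, minus strand) encodes the second cyclin B, which can take part in meiotic resumption beside cyclin B1. It was at 343.7, 324.2 and 277.8 FPKM in the controls and at 282.7, 256.9 and 230.0 FPKM in the aminophylline libraries. Aminophylline library 1 was above control library 3, and in every other pairing of a control with an aminophylline library the control was higher. The means of 315.2 ± 33.9 and 256.6 ± 26.4 FPKM (SD, n = 3 each) differed by -0.30 on the log2 scale (SE 0.16, interval -0.64 to 0.05), which did not pass in limma (adjusted p = 0.705). It was under 0.05 unadjusted after rescaling to a common sum (log2 difference -0.34), after quantile normalization (-0.36) and with library weights (-0.34). It was not after median centring (-0.38) or by voom on recovered reads (-0.40). The transcribed processed pseudogene *Ccnb2-ps* is not among the genes listed, and how reads shared with it were assigned is not given either. *Ccnb3* (NCBI gene 209091, chromosome X, 6979652 to 7041635, minus strand), which encodes a cyclin known for its role in female meiosis, had 4.33, 2.19 and 5.48 FPKM in controls and 2.72, 3.28 and 4.99 FPKM after aminophylline. The groups overlapped fully (limma, log2 difference -0.07, interval -0.72 to 0.59, adjusted p = 0.961), and the sign turned when any of 3 single libraries was left out.

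The make-up of cyclin B mRNA did not separate the groups. *Ccnb1* made up 68.7% to 77.4% of the summed FPKM of the 3 cyclin B genes, *Ccnb2* 22.2% to 31.1% and *Ccnb3* 0.21% to 0.52%. The ratio of *Ccnb1* to *Ccnb2* was 3.19, 2.21 and 3.49 in controls and 2.48, 3.08 and 3.19 after aminophylline. Its log2 means of 1.54 ± 0.35 and 1.54 ± 0.20 (SD, n = 3 each) differed by less than the spread (exact permutation p = 0.9, two-sided). Summed, the cyclin B genes reached 1445, 1044 and 1253 FPKM in controls and 986.3, 1051 and 969.3 FPKM after aminophylline, so that the groups met only at control library 2 and aminophylline library 2.

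*Cdk1* (NCBI gene 12534, chromosome 10, 69335146 to 69352912, minus strand) encodes the kinase itself. Its control levels of 48.7, 46.9 and 51.2 FPKM all lay below its aminophylline levels of 56.7, 61.8 and 59.2 FPKM. It was also the least variable of the 10 genes, with a coefficient of variation of 4.31% in controls and 4.35% after aminophylline. The means, 48.9 ± 2.11 and 59.2 ± 2.58 FPKM (SD, n = 3 each), differed by 21.0%. Limma, which draws each gene's variance towards that of genes of like level, gave a log2 difference of 0.27 (SE 0.15, interval -0.07 to 0.61) that did not pass (adjusted p = 0.721). The same difference was under 0.05 unadjusted in the model without this moderation and in limma without the filter on low values, while it was smaller after median centring (0.19) and by voom on recovered reads (0.17) and passed in neither.

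The mRNA of both main cyclins was then set against that of their kinase within each library, a ratio that does not move with the scaling between libraries. There were 29.6, 22.2 and 24.4 FPKM of *Ccnb1* plus *Ccnb2* per FPKM of *Cdk1* in control libraries 1, 2 and 3. After aminophylline there were 17.4, 16.9 and 16.3. The groups did not overlap, and the aminophylline libraries lay much closer together than the controls. As *Cdk1* alone did not overlap either, the ratio partly restates its higher level after aminophylline. On the log2 scale the means were 4.66 ± 0.21 and 4.08 ± 0.05 (SD, n = 3 each), a difference of -0.58. Its exact permutation p of 0.1 (two-sided) is the smallest that 3 against 3 libraries allow, so that this design cannot pass 0.05, and the p adjusted over the 5 ratios tested was 0.5. Leaving out any 1 library kept the difference between -0.67 and -0.46.

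**Figure D3:**
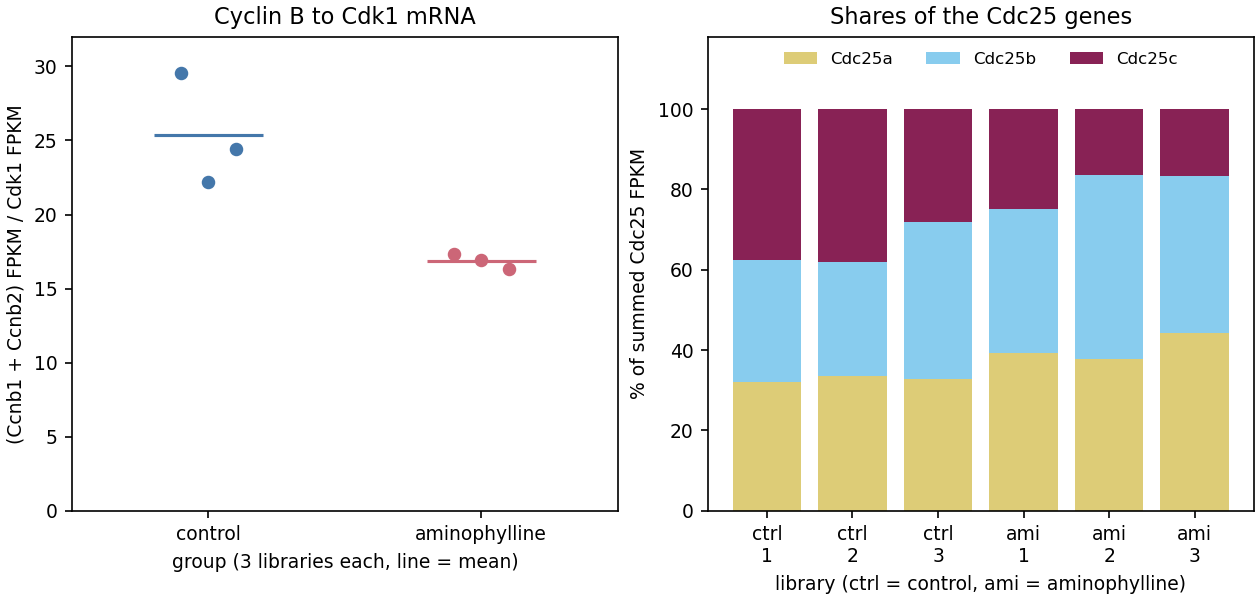
Left, FPKM of *Ccnb1* plus *Ccnb2* divided by that of *Cdk1* in each library, with lines at the group means. Right, shares of *Cdc25a*, *Cdc25b* and *Cdc25c* in their summed FPKM in each library. The ratio is 22.2 or above in the controls and 17.4 or below after aminophylline, and the share of *Cdc25c* is 28.2% or above in the controls and 24.8% or below after aminophylline.

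The Cdc25 phosphatases remove the inhibitory phosphates of Cdk1. *Cdc25c* (NCBI gene 12532, chromosome 18, 34732993 to 34751564, minus strand) is the form long tied to mitotic entry. Its control libraries held 5.56, 6.11 and 7.68 FPKM and its aminophylline libraries 3.51, 3.73 and 4.64 FPKM. The highest aminophylline library lay below the lowest control. The means were 6.45 ± 1.10 and 3.96 ± 0.60 FPKM (SD, n = 3 each), a difference of -38.6%. On the log2 scale this was -0.58 (SE 0.22, interval -1.07 to -0.10), under 0.05 in limma before adjustment but not after it (adjusted p = 0.682). A decrease at least as large was seen in 1.27% of tested genes. The values rest on 182 to 516 reads a library, where counting error alone is at most 7.41% of the value. It was no longer under 0.05 unadjusted without control library 3 (log2 difference -0.47), aminophylline library 1 (-0.52) or aminophylline library 2 (-0.55). An exon of *Gm3550* overlaps *Cdc25c* on the opposite strand in GENCODE M21, and as the strand setting of the counting is not given in the sources used here, reads of the pair cannot be told apart.

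*Cdc25b* (NCBI gene 12531, chromosome 2, 131186436 to 131198511, plus strand) encodes the form that mouse oocytes need to resume meiosis. It showed 4.49, 4.59 and 10.6 FPKM in the controls and 5.08, 10.5 and 10.9 FPKM after aminophylline. Control library 3 stood with aminophylline libraries 2 and 3, and aminophylline library 1 with the other controls, so that the libraries fell into a high and a low set that cut across the groups. The log2 difference of 0.41 (SE 0.35, interval -0.35 to 1.17) did not pass in limma (adjusted p = 0.766). *Spef1*, which overlaps its exons on the opposite strand, had at most 0.376 FPKM. *Cdc25a* (NCBI gene 12530, chromosome 9, 109875518 to 109893895, plus strand), also expressed in oocytes, had 4.72, 5.39 and 8.98 FPKM in the controls and 5.55, 8.62 and 12.4 FPKM after aminophylline. It split the libraries in the same way, and its log2 difference of 0.40 (SE 0.30, interval -0.26 to 1.07) did not pass either (limma, adjusted p = 0.75). With library weights, *Cdc25b* was under 0.05 unadjusted (log2 difference 0.68) and *Cdc25a* was not (0.53). Without control library 3, both were under 0.05 unadjusted, with log2 differences of 0.76 for *Cdc25b* and 0.64 for *Cdc25a*. Leaving out other single libraries gave smaller values, down to 0.22 for *Cdc25b* (without control library 1; 0.24 without control library 2 or aminophylline library 3) and 0.15 for *Cdc25a* (without aminophylline library 3), and larger ones without aminophylline library 1, 0.72 and 0.67. Between libraries of the same number, both genes were higher after aminophylline in 3 of 3 pairs, but a pairing by number was not established. With the replicate number as a block neither gene passed (limma, adjusted p = 0.407 for *Cdc25b* and 0.376 for *Cdc25a*).

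Within the family, the share of *Cdc25c* was lower after aminophylline, which partly restates its lower level and was not tested. *Cdc25c* made up 37.6%, 38.0% and 28.2% of the summed Cdc25 FPKM in control libraries and 24.8%, 16.3% and 16.6% in aminophylline libraries, without overlap. The sum itself overlapped between the groups, at 14.8, 16.1 and 27.3 FPKM in controls and 14.1, 22.8 and 27.9 FPKM after aminophylline. *Cdc25a* and *Cdc25b* kept near equal levels, with ratios of *Cdc25b* to *Cdc25a* from 0.851 to 1.22 and a log2 difference between the groups of 0.01 (exact permutation p = 1, two-sided).

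Of the kinases that place the inhibitory phosphates, the oocyte form *Wee2* (NCBI gene 381759, chromosome 6, 40435246 to 40466815, plus strand) was by far the most abundant. It had 132.2, 106.4 and 171.8 FPKM in the controls and 115.6, 141.2 and 148.6 FPKM after aminophylline. The aminophylline values lay within the range of the controls. Its log2 difference was 0.0019 (SE 0.20, interval -0.43 to 0.43, limma, adjusted p = 0.998), and its sign changed with the scaling. *Wee2* made up 95.4% to 97.3% of the summed FPKM of *Wee1*, *Wee2* and *Pkmyt1* in every library.

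*Wee1* (NCBI gene 22390, chromosome 7, 110122059 to 110143299, plus strand), the form of dividing somatic cells, had 2.34, 1.49 and 3.47 FPKM in controls and 1.83, 3.51 and 4.01 FPKM after aminophylline. The lowest library, control 2, was also the shallowest and held 72 reads of this gene, a counting error of 11.8%. The groups overlapped (limma, log2 difference 0.26, interval -0.37 to 0.89, adjusted p = 0.808), and the difference ranged from 0.05 without control library 2 to 0.51 without aminophylline library 1. *Pkmyt1* (NCBI gene 268930, chromosome 17, 23726336 to 23736735, plus strand), which encodes the membrane-bound Myt1, had 1.40, 2.85 and 3.15 FPKM in controls and 1.74, 2.34 and 3.25 FPKM after aminophylline, again with overlap (log2 difference 0.01, interval -0.58 to 0.59, limma, adjusted p = 0.994). Its sign changed with the scaling as well. The gene *Paqr4*, whose exons overlap those of *Pkmyt1* on the other strand, had 2.66 to 6.41 FPKM, so reads counted without strand could have mixed both genes.

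There were 49.5 to 71.3 FPKM of *Wee2* per FPKM of *Wee1* in controls and 37.1 to 63.1 after aminophylline (log2 difference -0.36, exact permutation p = 0.3), and leaving out 1 library moved the difference between -0.60 (without aminophylline library 1) and -0.21 (without aminophylline library 3). The summed Cdc25 mRNAs, set against the summed *Wee1*, *Wee2* and *Pkmyt1* mRNAs, gave ratios of 0.109, 0.145 and 0.153 in controls and 0.119, 0.155 and 0.179 after aminophylline. This balance overlapped between the groups, with a log2 difference of 0.15 (exact permutation p = 0.5, two-sided). In every library the inhibitory kinases thus had a higher summed FPKM than the phosphatases that oppose them, almost all of it *Wee2*.

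Several of the scarce genes varied together over the libraries, irrespective of group. *Cdc25a*, *Cdc25b* and *Wee1* were above their own means in control library 3 and aminophylline libraries 2 and 3 and below them in the other libraries. *Wee2* showed the same signs. The median log2 level of all tested genes had the same signs, with deviations of -0.10, -0.16 and 0.14 in the controls and -0.07, 0.06 and 0.13 after aminophylline, and its part in these levels was not tested. *Ccnb1*, *Ccnb2*, *Ccnb3*, *Cdk1*, *Cdc25c* and *Pkmyt1* did not show these signs. The 3 genes whose deviations were most like those of *Ccnb1*, by the root mean square difference of centred log2 levels over 6 libraries, were *Pramel26* (0.04), *Ankrd49* (0.04) and *Spidr* (0.05). *Ccnb2* was the closest of the other 9 genes with 0.23, at rank 1855.

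**Figure D4:**
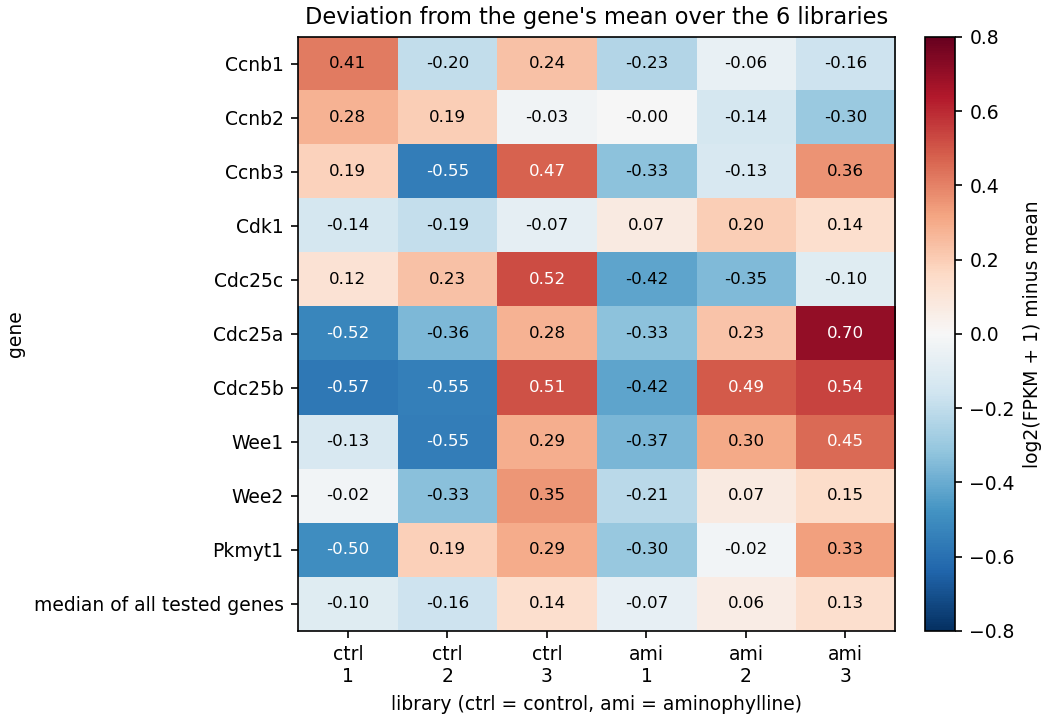
Deviation of log2(FPKM + 1) from the gene's mean over the 6 libraries (colour and printed value), with the median of all tested genes in the last row. *Cdc25a*, *Cdc25b* and *Wee1* are positive in control library 3 and aminophylline libraries 2 and 3, whereas *Cdk1* is negative in all controls and *Cdc25c* negative in all aminophylline libraries.

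The surrounding network was read from lists of further genes. Of the other Cdk partners, the Cks proteins and the kinase that activates Cdks, 7 of 8 genes were tested and 0 were under 0.05 unadjusted in limma. *Cks2*, at 1153 to 1668 FPKM, was more abundant than *Ccnb1* in every library. Of Greatwall and the PP2A-B55 phosphatase it inhibits, 9 of 11 genes were tested and 0 passed. Of the regulators of cyclin B mRNA translation, 9 of 10 were tested and 0 passed. Over all tested genes, 7.25% were under 0.05 unadjusted. A count of 0 therefore does not set such short lists apart.

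A list of 13 genes covered regulators and part of the subunits of the anaphase promoting complex, which marks cyclin B for destruction. Of these, 12 were tested, with 1 higher (4.41% of all tested genes) and 1 lower (2.84% of all tested genes) at an unadjusted p under 0.05. The subunit genes *Anapc1*, *Anapc4*, *Anapc5*, *Anapc7*, *Anapc13*, *Anapc15* and *Anapc16* were not in the list, and none of them was under 0.05 unadjusted. The subunit gene *Cdc16* had 17.1, 13.3 and 18.9 FPKM in controls and 10.3, 10.2 and 12.04 FPKM after aminophylline, all lower than every control (limma, log2 difference -0.55, SE 0.20, adjusted p = 0.682). The cullin-like subunit gene *Anapc2* had 3.68, 4.16 and 5.83 FPKM in controls and 5.04, 7.85 and 9.18 FPKM after aminophylline, where aminophylline library 1 lay within the controls (limma, log2 difference 0.57, SE 0.26, adjusted p = 0.685). Of the kinases, phosphatases and 14-3-3 proteins that act on Cdc25 and Wee1, 17 of 18 were tested, with 0 higher and 2 lower, beside 4.41% and 2.84% of all tested genes. The 2 genes, *Ywhaq* and *Ywhae*, encode 14-3-3 proteins, which bind phosphorylated Cdc25, and other genes of that family had differences such as 0.54 (*Ywhag*) and -0.01 (*Ywhab*) that did not pass. *Ywhaq* had 203.1, 178.0 and 203.3 FPKM in controls and 151.9, 138.0 and 154.3 FPKM after aminophylline, without overlap (limma, log2 difference -0.39, SE 0.15, adjusted p = 0.682). *Ywhae* had 109.4, 60.9 and 99.3 FPKM in controls and 55.8, 55.5 and 65.9 FPKM after aminophylline, where control library 2 lay within the aminophylline range (log2 difference -0.56, SE 0.22, adjusted p = 0.682). The medians of the 5 lists ranged from -0.10 to 0.10, beside 0.10 over all tested genes, and with 3 lower and 1 higher of all genes listed these counts are shown as a description.

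Over all settings, *Cdc25c*, *Cdk1*, *Ccnb1* and *Ccnb2* were compared. *Cdc25c* stayed negative and *Cdk1* positive under every scaling, filter and left-out library that was run, and *Ccnb1* and *Ccnb2* stayed negative. A constant sign does not set these genes apart. *Cdc25a* (0.15 to 0.67), *Cdc25b* (0.22 to 0.76) and *Wee1* (0.05 to 0.51) also stayed positive throughout. *Cdc25c* was under an unadjusted p of 0.05 in 10 of 10 alternative settings and in 3 of the 6 runs that left out a library, with log2 differences between -0.80 and -0.47.

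**Figure D5:**
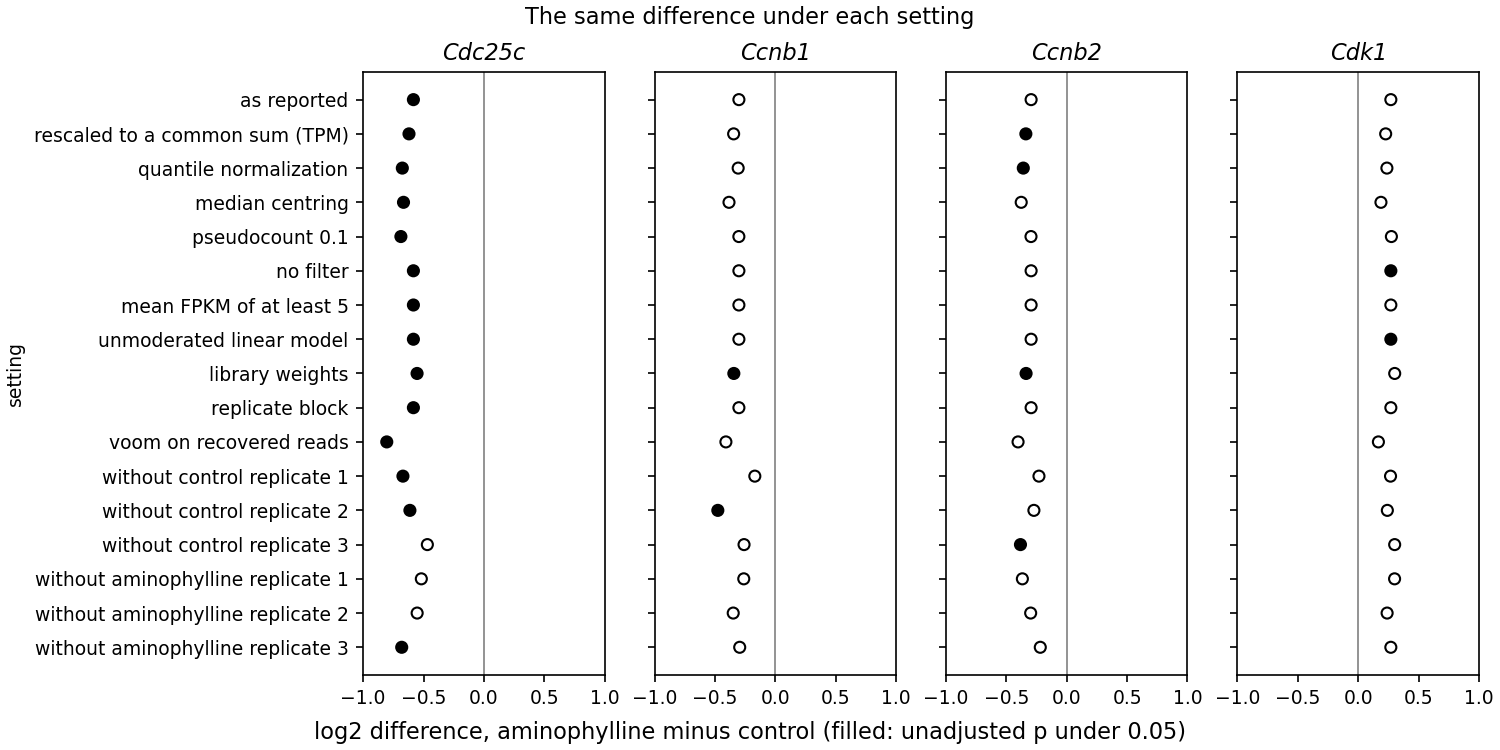
Log2 difference between aminophylline and control of *Cdc25c*, *Ccnb1*, *Ccnb2* and *Cdk1* as reported and under each alternative setting, with filled points for an unadjusted p under 0.05. The points of each gene stay on one side of 0, between -0.80 and -0.47 for *Cdc25c*, while most of the other genes' points are open.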

How the data were processed

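RNA of oocytes was sequenced in 6 libraries, 3 of each group, grouped by the labels. What the authors deposited are FPKM values, fragments of each gene over its transcript length and the library total, not scaled further. The submitters' processing notes name GRCm38 and mm10. The aligner, the counting program and its strand setting are not given in the sources used here. Whole reads were recovered from the ratios of FPKM for 22582 of 22583 genes (tolerance 1e-05 reads). Genes with at least 1 FPKM in at least 3 libraries were tested on log2(FPKM + 1) with limma 3.58.1 in R 4.3.3 (variance trend, two-sided) and adjusted by Benjamini-Hochberg over all tested genes. The pseudocount of 1 understates changes of scarce genes. Ratios were compared by exact permutation tests in scipy 1.17.1 (Python 3.11.15). The code was tested on simulated data. Alternatives were 3 other scalings, a pseudocount of 0.1, no filter, a mean of at least 5 FPKM, no moderation, library weights, voom on recovered reads, the replicate block and each library left out. Over genes, the deviations from the mean of the group correlated between libraries of the same number with r of 0.138, 0.140 and 0.552. Control 2 and aminophylline 1, of unlike number, reached 0.423, so a pairing by number was not established. The main fit and the permutation tests of ratios were unpaired, and the number was used only in the replicate block. The labels give only the numbers. Text named the 10 genes, listed regulators under an unadjusted p of 0.05, and the 3 genes most like *Ccnb1*. Genes and lists were chosen with earlier results of these data known.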

Additional observations from a re-analysis of the deposited data

How the results depend on the processing

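The number of genes at an unadjusted p under 0.05 was 750 and became 1404 without a filter, 2011 with library weights and 1467 with the replicate block, and 329 to 1617 when 1 library was left out. The count split into 456 higher and 294 lower genes as reported, 281 and 292 after rescaling to a common sum, 347 and 528 after quantile normalization, 281 and 502 after median centring and 267 and 598 by voom. At an adjusted p, 47 genes were called with the replicate block and 0 under every other setting. Of the 10 genes, 1 passed unadjusted as reported, 2 after rescaling to a common sum or quantile normalization, 2 without a filter or without moderation, 4 with library weights (*Ccnb1*, *Ccnb2*, *Cdc25b* and *Cdc25c*), and 0 to 3 with a library left out (0 without aminophylline library 1 or 2, 2 without control library 2, 3 without control library 3). The replicate block changed no call among the 10 genes. *Wee2* turned to -0.0415 after rescaling, -0.0512 after quantile normalization, -0.0801 after median centring and -0.1104 by voom, and ranged from -0.16 to 0.18 with a library left out. *Pkmyt1* turned to -0.0213, -0.1101, -0.0746 and -0.0328 under these settings, and ranged from -0.24 to 0.16. *Ccnb3* ranged from -0.36 to 0.15. With a library left out, the log2 difference in ratio ranged from -0.20 to 0.13 for *Ccnb1* to *Ccnb2*, from -0.13 to 0.14 for *Cdc25b* to *Cdc25a*, and from -0.0018 to 0.31 for summed Cdc25 to the inhibitory kinases. The causes of these shifts were not tested. Depth limits the scarce genes most, where *Wee1* had as few as 72 reads. Intervals of the other 9 genes include 0, which does not show that they did not change. With 3 libraries a group, no ratio could reach a p under 0.1.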
